A study of Homo sapiens with 6 samples.

Results

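The aminoacyl-tRNA synthetases and their scaffold proteins were examined as a set of 38 genes chosen by name, among 60420 genes in the table. The set comprised 20 cytosolic enzymes, 16 mitochondrial enzymes, whose names end in 2, and the scaffold proteins AIMP1 and AIMP2, which are not enzymes. All 38 were found by matching Ensembl identifiers to symbols. An aminoacyl-tRNA synthetase joins 1 amino acid to the transfer RNAs that carry it, and so sets which residue the ribosome adds at each codon. Human cells use separate nuclear-encoded enzymes for the cytosol and for mitochondria, although GARS1 and KARS1 each serve both compartments. Several cytosolic enzymes assemble with AIMP1 and AIMP2 into the multisynthetase complex. Many cytosolic enzymes are also transcribed under ATF4, the transcription factor of the integrated stress response, which is made when amino acids are scarce or the eIF2 kinases are active.

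The cells were HEK293T, derived from human embryonic kidney and expressing large T antigen of SV40, and had been given an inhibitor of the arginine methyltransferase PRMT1, an inhibitor of PRMT4 (CARM1) or the vehicle DMSO. Which compound was used, how much and for how long are not stated in the labels. There were 6 libraries, 1 of input and 1 of ribosome-protected fragments (footprints) for each of 3 treatments, so no difference below has a replicate check and none carries a p-value. Levels are TPM, each gene's share of the transcripts of its library, scaled for gene length. A level per cell cannot be read from a share, and in such bulk samples fewer cells of a kind and less RNA per cell cannot be told apart. The PRMT1 and PRMT4 inhibitor libraries of a fraction were set against the same DMSO library, so these comparisons share it.

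The order of the inhibitor labels differed between the 2 fractions for a strongly differing gene. HMOX1, the stress-induced heme oxygenase, had input levels of 21.6 TPM under the PRMT1 label, 157 TPM under the PRMT4 label and 7.53 TPM in DMSO. In footprints the order was the opposite, with 642 TPM under the PRMT1 label, 93.9 TPM under the PRMT4 label and 33.0 TPM in DMSO. Libraries are therefore named by their labels throughout, and translation efficiency, which joins an input with a footprint library, is given for both ways of pairing the inhibitor labels. Exchanged labels and an opposite difference in ribosome loading cannot be told apart from these values. Protein-coding genes held 38.7%, 33.4% and 45.7% of TPM in the inputs labelled PRMT1 inhibitor, PRMT4 inhibitor and DMSO, and 62.3%, 70.6% and 74.3% in the corresponding footprints. The median gene was shifted by -0.16 and -0.37 (log2) in the inputs labelled PRMT1 and PRMT4 inhibitor and by -0.15 and -0.01 in their footprints, each against DMSO. Ratios are log2((TPM + 1)/(TPM + 1)), given relative to the median of the 9040 genes with a mean of at least 5 TPM over the 6 libraries. Of the 38 genes, 35 reached that level. A gene is counted as higher or lower where its ratio passed 1.5-fold.

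Sequence upstream of the genes is shown first, because several of the genes that hold a motif of ATF4 recur in the results. RefSeq promoter windows (GRCh38.p14, 250 bases before to 50 bases after each annotated start) were available for 32 of the 38 genes, in 44 windows. The motif TGATGNAA, the core of the C/EBP-ATF response element that ATF4 binds, was searched on both strands. It occurred in 7 of 16 cytosolic enzymes with a window, in 1 of 14 mitochondrial enzymes and in neither scaffold gene. Of all 34943 windows in the table, 3.62% held it, and 4.47% of all genes did so in at least 1 window. Each match is printed 5′ to 3′ on the strand of the motif with 10 flanking bases on each side, the motif in capitals.

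AARS1: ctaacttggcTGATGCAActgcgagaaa
CARS1: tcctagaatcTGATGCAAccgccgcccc
GARS1: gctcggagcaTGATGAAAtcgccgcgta
IARS1: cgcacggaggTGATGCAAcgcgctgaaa
MARS1: aatccctcgcTGATGCAAccggaaccgg
NARS1: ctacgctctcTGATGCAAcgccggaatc
TARS1: ctggaccagcTGATGCAAtcgaaaggcg
YARS2: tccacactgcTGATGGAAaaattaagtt

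Apart from GARS1 and YARS2, the matches shared the form TGATGCAA. They lay at chr16:70289686-70289693 (AARS1), chr11:3057418-3057425 (CARS1), chr7:30594845-30594852 (GARS1), chr9:92293703-92293710 (IARS1), chr12:57488064-57488071 (MARS1), chr18:57621815-57621822 (NARS1), chr5:33440967-33440974 (TARS1) and chr12:32756087-32756094 (YARS2). Counted to the first base of the match along the gene, the AARS1 and YARS2 matches began 187 and 197 bases before the start, those of GARS1, IARS1, MARS1 and CARS1 began 33, 13, 4 and 2 bases before it, and those of TARS1 and NARS1 lay 3 and 15 bases into the transcript. GARS1, CARS1 and TARS1 each have a second annotated start whose window holds no match, and distances are to the start whose window holds it. The GARS1 and TARS1 matches lie downstream of that second start. All 7 cytosolic enzymes with a match belong to the 13 reported as ATF4 targets, of which 10 had a window. None of the other 6 cytosolic enzymes with a window had one. The list of 13 was drawn from reports on ATF4, so it is not independent of such a motif. A match is a string of letters and not a measured binding site.

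The 250 bases before the start of IARS1, the isoleucine enzyme, and before that start of GARS1, the glycine enzyme, are shown on the strand of the gene as examples, with the match in capitals as it reads on that strand (chr9:92293698-92293947, minus strand, and chr7:30594628-30594877, plus strand). The histidine enzymes HARS1 and HARS2 are an example of a different kind: they start 85 bases apart on opposite strands of chromosome 5, so that the sequence before HARS1 (chr5:140691371-140691620, minus strand) contains the start of HARS2. It held no match.

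IARS1: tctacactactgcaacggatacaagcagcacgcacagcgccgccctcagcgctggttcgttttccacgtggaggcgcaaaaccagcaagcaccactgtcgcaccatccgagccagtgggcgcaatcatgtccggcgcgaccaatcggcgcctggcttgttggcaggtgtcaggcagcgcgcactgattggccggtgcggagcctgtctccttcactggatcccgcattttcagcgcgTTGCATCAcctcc
GARS1: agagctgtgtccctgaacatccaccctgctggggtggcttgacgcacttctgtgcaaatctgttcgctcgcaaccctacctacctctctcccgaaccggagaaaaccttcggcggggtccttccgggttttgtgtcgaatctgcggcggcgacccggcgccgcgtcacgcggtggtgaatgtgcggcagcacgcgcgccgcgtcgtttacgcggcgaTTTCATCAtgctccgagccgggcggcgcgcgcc
HARS1: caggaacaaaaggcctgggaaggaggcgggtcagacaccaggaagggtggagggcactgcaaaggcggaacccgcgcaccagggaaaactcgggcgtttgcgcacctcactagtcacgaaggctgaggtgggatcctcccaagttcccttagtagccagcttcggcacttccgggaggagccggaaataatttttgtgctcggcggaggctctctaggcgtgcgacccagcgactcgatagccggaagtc

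Messages of cytosolic enzymes were more abundant than those of mitochondrial ones, in input and in footprints. In the DMSO input the 20 cytosolic enzymes ranged from 11.6 to 178 TPM with a median of 61.6, and the 16 mitochondrial enzymes from 4.62 to 24.2 TPM with a median of 11.1. In the DMSO footprints the ranges were 7.60 to 202 TPM (median 74.6) for cytosolic and 2.35 to 37.9 TPM (median 8.54) for mitochondrial enzymes. The classes overlapped in both libraries. In DMSO footprints the glycine enzyme GARS1 was the highest of the set at 202 TPM, followed by the phenylalanine enzyme subunit FARSA at 193 TPM and the tyrosine enzyme YARS1 at 180 TPM. In the DMSO input the order was different, with YARS1 highest at 178 TPM, followed by the serine enzyme SARS1 at 119 TPM and the glutamine enzyme QARS1 at 118 TPM. The gaps between these neighbours have no replicate error to be judged against. Taken as a share of protein-coding TPM, the 38 genes together held 0.297% in the input labelled PRMT1 inhibitor, 0.35% in the input labelled PRMT4 inhibitor and 0.342% in the DMSO input. Their shares of the footprints were 0.283% under the PRMT1 label, 0.228% under the PRMT4 label and 0.261% in DMSO.

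**Figure D1:**
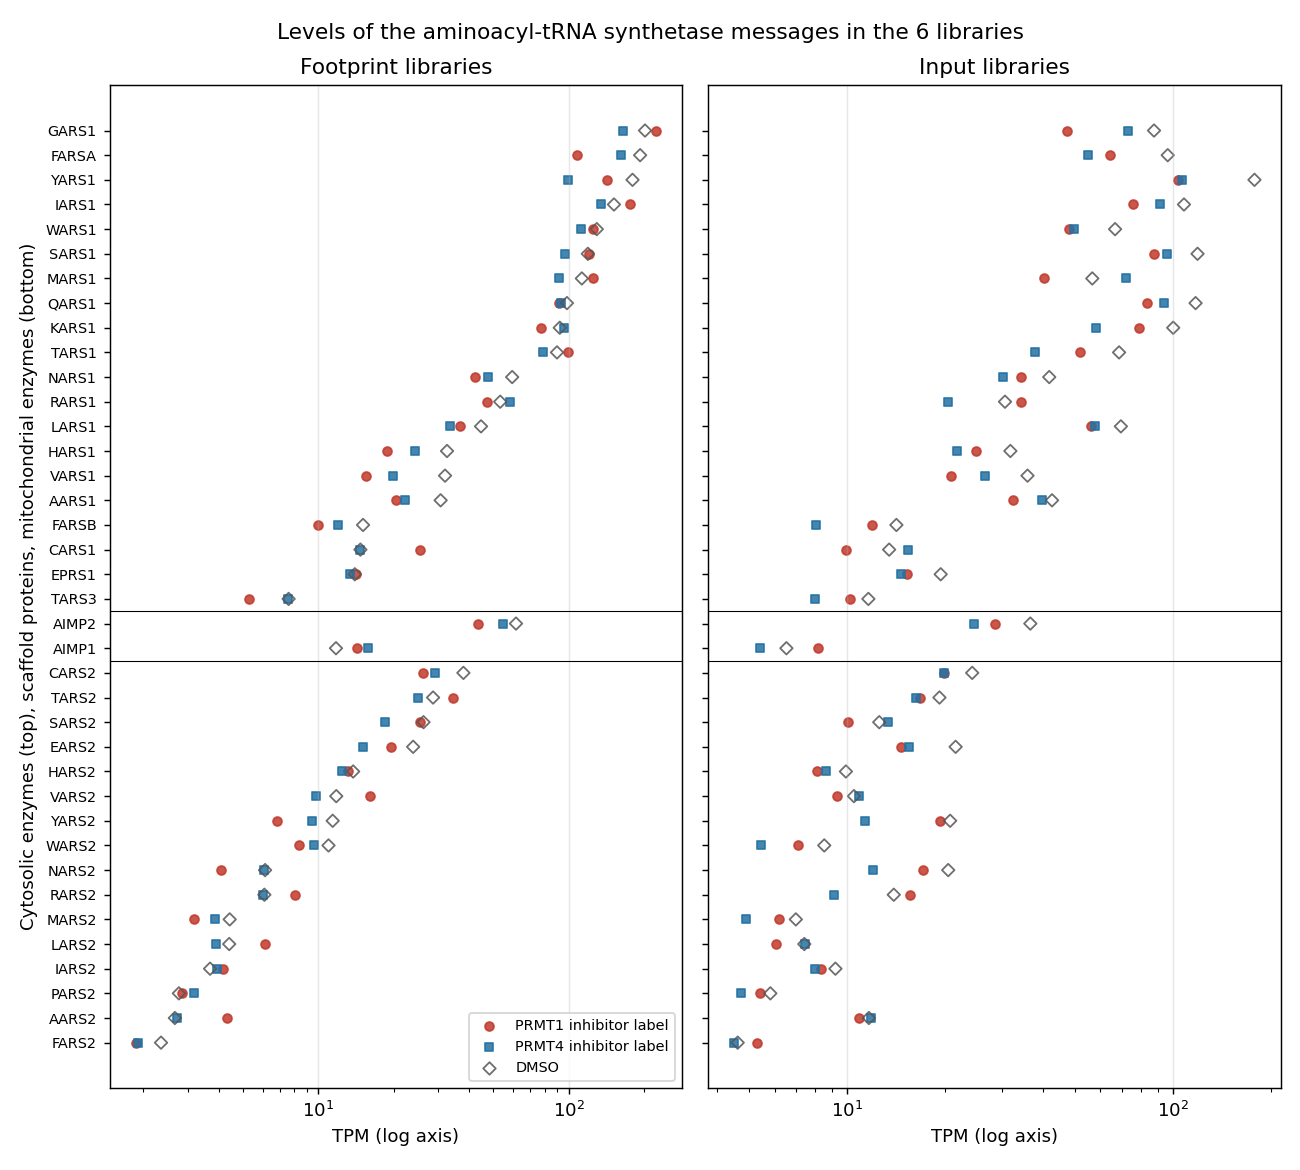
TPM (log axis) of the 38 genes in the 3 footprint libraries (left panel) and the 3 input libraries (right panel), ordered within each class by DMSO footprints; circles, squares and diamonds mark the PRMT1 inhibitor label, the PRMT4 inhibitor label and DMSO. Cytosolic enzymes reach 202 TPM in DMSO footprints, mitochondrial enzymes 37.9 TPM.

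When each cytosolic enzyme was set against the mitochondrial enzyme for the same amino acid (16 pairs, with EPRS1 paired to both EARS2 and PARS2, and FARSA paired to FARS2), the cytosolic message was higher in 14 pairs in the DMSO input and in the DMSO footprints. The median ratio of the pairs was 3.09, 3.21 and 3.6 in the inputs labelled PRMT1 inhibitor, PRMT4 inhibitor and DMSO, and 5.39, 8.04 and 9.23 in the footprints. Cysteine was an exception. CARS1, the cytosolic cysteine enzyme, was below CARS2, its mitochondrial counterpart, with 14.7 against 37.9 TPM in the DMSO footprints and 13.5 against 24.2 TPM in the DMSO input. The glutamate pair was the other: EPRS1, a fused enzyme that charges both glutamate and proline tRNAs in the cytosol, stood at 14.0 TPM in the DMSO footprints, against 23.9 TPM for EARS2. The widest gap was between FARSA and the mitochondrial FARS2, a ratio of 82.0 in the DMSO footprints and 20.9 in the DMSO input. FARS2 had few TPM, 2.35 in those footprints and 4.62 in that input, and the pair ratios used no pseudocount. The pairs include FARS2, MARS2 and PARS2, whose means were under the minimum of 5 TPM.

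FARSA and FARSB, the subunits of the cytosolic phenylalanine enzyme, had unequal levels, although the enzyme is built from equal numbers of each. FARSA had 107, 162 and 193 TPM in the footprints labelled PRMT1 inhibitor, PRMT4 inhibitor and DMSO, and FARSB had 9.96, 11.9 and 15.1 TPM. The ratio of FARSA to FARSB was thus 10.8, 13.6 and 12.8 in those footprints, and 5.36, 6.82 and 6.81 in the inputs. TPM divides by the length of the annotated gene model, and whether that length matches the transcripts made in these cells was not tested.

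Ribosome loading, the footprint level over the input level of the same treatment, differed widely among the enzymes in DMSO, where the pairing of libraries is not in doubt. Among tested genes of the set, GARS1 was highest, with a log2 ratio of 1.1 relative to the median gene, followed by the serine enzyme SARS2 at 0.92, FARSA at 0.90 and the methionine enzyme MARS1 at 0.89. At the low end were mitochondrial enzymes, AARS2 for alanine at -1.88, NARS2 for asparagine at -1.68, IARS2 for isoleucine at -1.21 and RARS2 for arginine at -1.16. The medians of cytosolic and mitochondrial enzymes tested were -0.03 and 0.05, but this closeness depended on the filter: with all 38 genes and no minimum level they were 0.10 and -0.55. The mitochondrial enzymes were spread more widely, from -1.88 to 0.92, and the cytosolic ones from -0.71 (LARS1, leucine) to 1.1. For comparison, 78 mitochondrial ribosomal protein genes had a median of 0.40.

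In the input labelled PRMT1 inhibitor, the cytosolic enzymes lay below DMSO nearly as a block, while mitochondrial enzymes were scattered around the median gene. Of the 20 cytosolic enzymes 19 had a ratio below 0, with a median of -0.24, against 52.3% of protein-coding genes tested and a median of -0.01 for them. The exception was the arginine enzyme RARS1 at 0.32, with 34.4 TPM against 30.6 TPM in DMSO. Of the 13 mitochondrial enzymes tested 8 were below 0, with a median of -0.08, and the cytosolic median was lower than the mitochondrial by 0.16, a difference that does not depend on where ratios are centred. Lying mostly below was not particular to cytosolic enzymes. Of the 78 mitochondrial ribosomal protein genes 63 were below 0 in the same input, with a median of -0.15. GARS1 had 47.5 TPM, against 87.7 TPM in DMSO, which is a log2 ratio of -0.71. YARS1 stood at 104 against 178 TPM (-0.62) and the valine enzyme VARS1 at 20.9 against 35.9 TPM (-0.59). These 3 genes were the ones past 1.5-fold lower, a call made for 0.918% of all genes tested, and no gene of the set was past 1.5-fold higher, where the background was 1.91%. VARS1 was not past 1.5-fold when TPM was recomputed over protein-coding genes or a pseudocount of 5 was used.

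In the input labelled PRMT4 inhibitor the cytosolic enzymes parted. MARS1 had 71.9 TPM against 56.7 TPM in DMSO, a log2 ratio of 0.70 and the one gene of the set past 1.5-fold higher, against a background of 5.85%. CARS1 had 15.4 against 13.5 TPM (0.55) and AARS1, the alanine enzyme, 39.6 against 42.7 TPM, a smaller share of the library that came to 0.26 relative to the median gene. On the other side stood the threonine enzyme TARS1 at 37.8 against 68.5 TPM (-0.48), FARSA at 54.9 against 96.6 TPM (-0.44) and the lysine enzyme KARS1 at 58.4 against 100 TPM (-0.41). None was past 1.5-fold lower relative to the median gene, where 3.11% of all genes were. In this library the split depended on centring: without it 0 of the set were past 1.5-fold higher and 7 were lower. Of the 20 cytosolic enzymes 12 were below 0, against 52.2% of protein-coding genes. The 13 enzymes reported as ATF4 targets had a median of 0.05 and the other 7 one of -0.19. Their difference of 0.25 is free of centring, whereas the ATF4-reported median itself was -0.31 without it. The 13 mitochondrial enzymes tested had a median of 0.14, which was -0.23 without centring. Of the 78 mitochondrial ribosomal protein genes 69 were below 0 in this library, with a median of -0.28 relative to the median gene.

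In footprints labelled PRMT1 inhibitor the ATF4-reported and the other cytosolic enzymes stood further apart. CARS1 had 25.4 TPM, against 14.7 TPM in DMSO, which is a log2 ratio of 0.89, and was the cytosolic enzyme past 1.5-fold higher. The mitochondrial AARS2 was the other gene past that fold, at 4.32 against 2.67 TPM (0.68), a gene with few TPM. Together they were 2 of 35 genes, and the background was 9.48%. IARS1 stood at 175 against 152 TPM (0.35), GARS1 at 223 against 202 TPM (0.29), MARS1 at 125 against 113 TPM (0.29) and TARS1 at 99.6 against 89.7 TPM (0.29). VARS1 had 15.5 against 32.0 TPM (-0.86), FARSA 107 against 193 TPM (-0.69) and HARS1 18.8 against 32.6 TPM (-0.62). HARS1 and HARS2 are close paralogs, and the sources used here do not say how reads matching both were divided. These 3 were past 1.5-fold lower, with a background of 4.65%. Without centring 1 gene, CARS1, was past that fold higher and 4 were lower, YARS2 among them. The 13 ATF4-reported enzymes had a median of 0.16 and the other 7 one of -0.31, with 5 and 6 of them below 0, against 52.4% of protein-coding genes. Their difference of 0.46 was the widest among the 4 comparisons of an inhibitor library with DMSO. The ATF4-reported median was 0.01 without centring.

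The genes with a motif match were not uniform in these footprints. CARS1, IARS1, GARS1, MARS1 and TARS1 were above the median gene, and NARS1 at -0.34, AARS1 at -0.43 and the mitochondrial YARS2 at -0.52 were below it. All 5 of the first group had their match within 33 bases of the annotated start used. NARS1 did too, at 15 bases into the transcript. The ATF4-reported enzymes with a window and no match, EPRS1 (0.16), SARS1 (0.16) and WARS1 (0.10), were also above the median gene. Those with no window, LARS1 (-0.13), YARS1 (-0.20) and VARS1 (-0.86), were below it. Of the other cytosolic enzymes with a window, QARS1 (0.04) was above it, and FARSA, FARSB, HARS1, KARS1 and RARS1 were below it. The grouping was not the same in other libraries. In the input labelled PRMT1 inhibitor all 13 ATF4-reported enzymes were below the median gene, with or without a match. In the input labelled PRMT4 inhibitor TARS1 stood at -0.48, while CARS1, IARS1, GARS1 and MARS1 were above the median gene.

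Mitochondrial enzymes in the footprints labelled PRMT1 inhibitor ran from YARS2 at -0.52 to AARS2 at 0.68, with 8 of 13 above 0 and a median of 0.10 that was -0.05 without centring. VARS2 stood at 16.01 against 11.8 TPM in DMSO (0.56), LARS2 at 6.10 against 4.40 TPM (0.54), RARS2 at 8.09 against 6.08 TPM (0.51) and the threonine enzyme TARS2 at 34.6 against 28.7 TPM (0.41). LARS2, RARS2 and AARS2 stood under 10 TPM in every footprint library. VARS1 and VARS2, the cytosolic and mitochondrial valine enzymes, had footprint levels of 15.5 and 16.01 TPM under this label, whereas in DMSO they had 32.0 and 11.8 TPM. The mitochondrial ribosomal proteins had a median of -0.20 in the same comparison, with 67 of 78 below 0, a median lower than that of the mitochondrial enzymes. In the footprints labelled PRMT4 inhibitor the order was the opposite, with -0.07 for the ribosomal proteins and -0.17 for the mitochondrial enzymes.

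In the footprints labelled PRMT4 inhibitor both classes lay mostly below DMSO. Of the 20 cytosolic enzymes 16 were below 0 with a median of -0.26, and of the 13 mitochondrial enzymes tested 11 were below 0 with a median of -0.17, against 51.5% of protein-coding genes. YARS1 had 99.4 against 180 TPM in DMSO (-0.84), VARS1 19.9 against 32.0 TPM (-0.65) and EARS2 15.1 against 23.9 TPM (-0.63). These 3 genes were past 1.5-fold lower, where the background was 1.83%, and none was past 1.5-fold higher, where it was 3.09%. With a pseudocount of 5 YARS1 alone remained. The ATF4-reported enzymes had a median of -0.29, with 12 of 13 below 0, and the other 7 cytosolic enzymes one of -0.08. In all 4 inhibitor libraries 6 of the 20 cytosolic enzymes (FARSA, FARSB, HARS1, NARS1, VARS1 and YARS1), 3 of the 13 mitochondrial enzymes tested (EARS2, NARS2 and WARS2) and the scaffold gene AIMP2 were below the median gene. Among all genes tested 17.9% were so, and among protein-coding genes 19.3%.

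**Figure D2:**
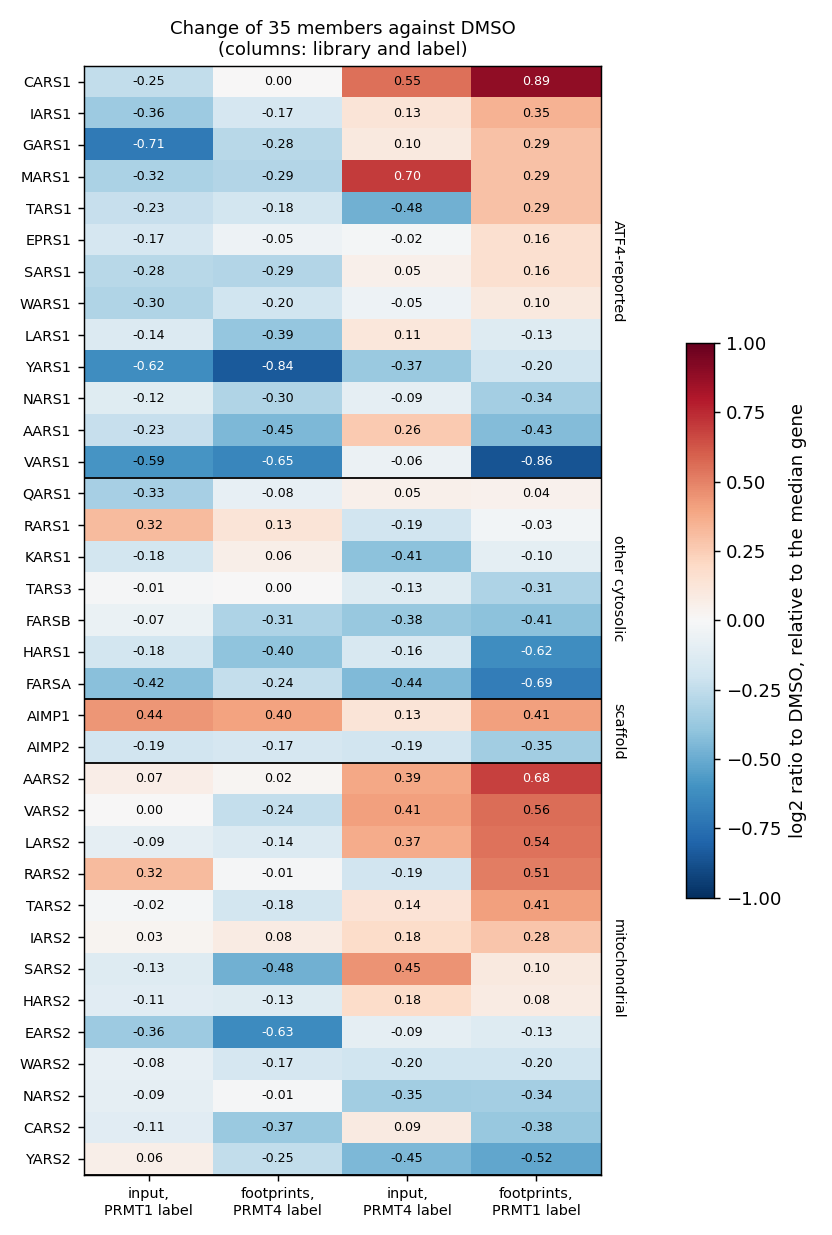
Log2 ratio to DMSO, relative to the median gene, of the 35 genes tested (rows, grouped by class) in the 4 inhibitor libraries (columns, by fraction and label); red is higher and blue lower than DMSO. CARS1 reads -0.25, 0.00, 0.55 and 0.89 from left to right, and YARS1 is blue in every column.

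Footprint ratios of these genes followed the input ratios of the other inhibitor label more closely than those of their own. Across the 35 genes tested, the footprint ratios under the PRMT1 label had a Pearson correlation of 0.60 (Spearman 0.57) with the input ratios under the PRMT4 label, and of 0.26 (0.21) with the input ratios under their own label. The footprint ratios under the PRMT4 label had a correlation of 0.68 (0.53) with the input ratios under the PRMT1 label and of 0.06 (0.03) with those of their own label. The compared ratios share no library, but the points are genes of 6 libraries and not independent replicates, so these values are descriptions. Over the 8117 protein-coding genes tested, the corresponding values were 0.56 for unlike and 0.36 for like labels with PRMT1-labelled footprints, and 0.46 and 0.20 with PRMT4-labelled footprints. The order of the correlations was thus the same over the protein-coding genes.

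**Figure D3:**
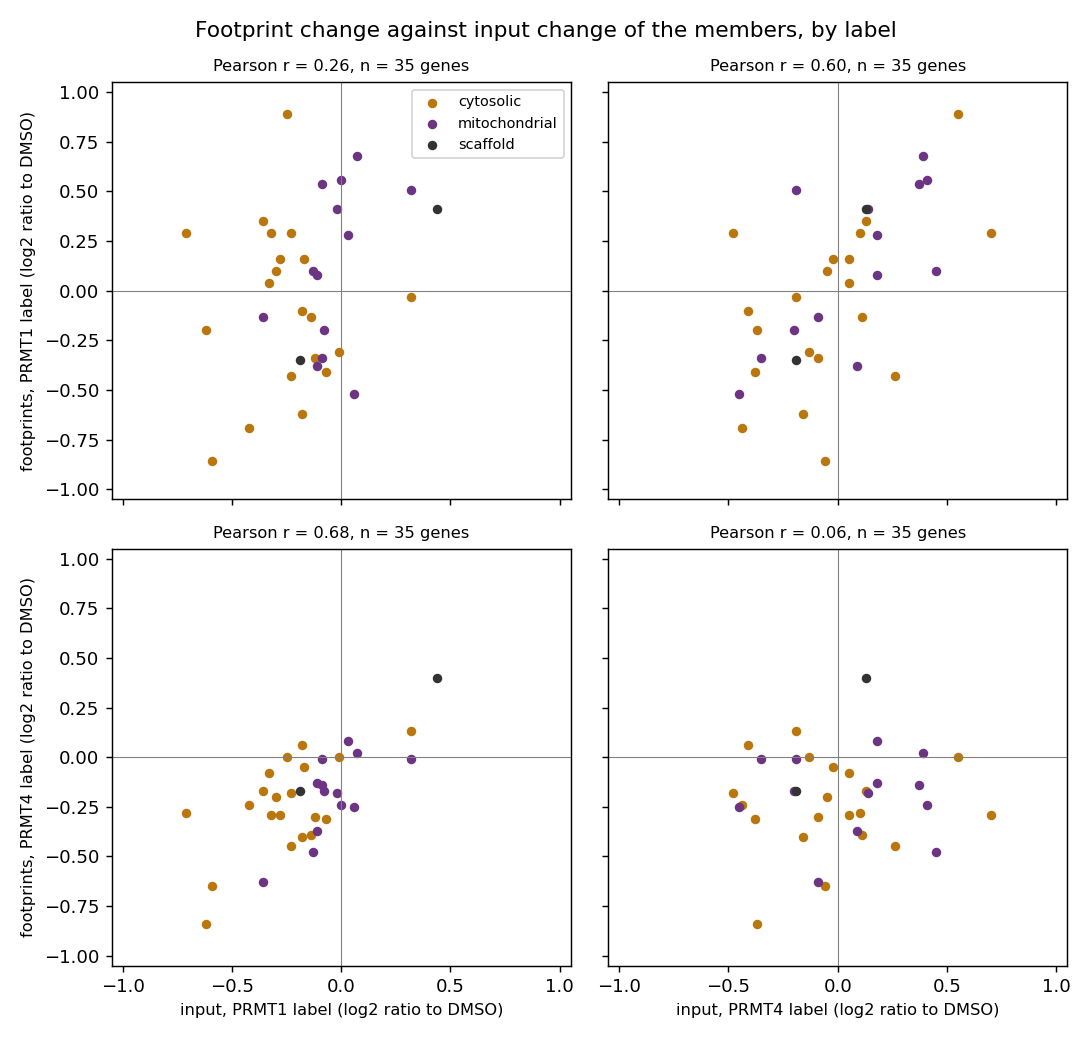
Footprint ratio to DMSO (vertical axes, log2) against input ratio to DMSO (horizontal axes, log2) for the 35 genes tested, with rows by footprint label and columns by input label; each point is a gene, coloured by class. The points follow each other more closely where the labels differ (r = 0.60 and 0.68) than where they are the same (r = 0.26 and 0.06).

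Setting the inhibitor libraries directly against each other, with no DMSO library involved, gave opposite answers in the 2 fractions. Relative to the median gene, the ATF4-reported enzymes were lower in input under the PRMT1 label than under the PRMT4 label in 12 of 13 cases. That compared with 49.1% of protein-coding genes, and the median was -0.32, or -0.13 without centring. Among the 12, EPRS1 and NARS1 had more TPM under the PRMT1 label, at 15.29 against 14.65 TPM and 34.3 against 30.2 TPM. MARS1 had 40.4 TPM under the PRMT1 label against 71.9 TPM under the PRMT4 label (-1.01), GARS1 47.5 against 72.9 TPM (-0.80) and CARS1 9.92 against 15.4 TPM (-0.78). These 3 were past 1.5-fold lower, with a background of 4.14%, and none was higher, where it was 4.02%, although RARS1, RARS2 and YARS2 were past 1.5-fold higher without centring. In footprints, 11 of the 13 were higher under the PRMT1 label than under the PRMT4 label relative to the median gene (median 0.46). Of protein-coding genes 51.6% were below 0. Among the 11, AARS1 had 20.3 TPM under the PRMT1 label against 22.2 TPM under the PRMT4 label. CARS1 had 25.4 against 14.7 TPM (0.90), YARS1 142 against 99.4 TPM (0.65) and MARS1 125 against 91.7 TPM (0.59). Together with AARS2, LARS2, SARS2, TARS2 and VARS2 they made up the 8 genes past 1.5-fold higher, where the background was 8.52%, and none was lower, where it was 2.69%. Without centring CARS1 and VARS2 remained higher and FARSA was past 1.5-fold lower. The other 7 cytosolic enzymes ran against the ATF4-reported ones in each fraction, with medians of 0.14 in input and -0.16 in footprints. The 13 mitochondrial enzymes tested went the same way as the ATF4-reported ones, with medians of -0.18 in input and 0.50 in footprints. Of these mitochondrial enzymes 9 were below 0 in input and 9 above 0 in footprints, but the sign of their input median did not hold without centring. Their footprint median was smaller with a minimum mean of 1 TPM or with no minimum, as listed in the last section. Across the 35 genes the input and footprint ratios of PRMT1 over PRMT4 label had a Pearson correlation of -0.59 (Spearman -0.61), and over the protein-coding genes one of -0.42 (-0.41).

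Translation efficiency, the footprint over the input ratio to DMSO, depended on which input was used. With inputs of the same label, the ATF4-reported enzymes had a median of 0.42 under the PRMT1 label, with 10 of 13 above 0, and of -0.40 under the PRMT4 label, with 12 of 13 below 0. Below 0 were 51.0% and 49.2% of protein-coding genes. The other 7 cytosolic enzymes had medians of -0.30 and 0.12. The 13 mitochondrial enzymes tested had the same signs as the ATF4-reported ones, with medians of 0.23 and -0.33. Of them 9 were above 0 under the PRMT1 label and 9 below 0 under the PRMT4 label. Under the PRMT1 label 6 of the 35 genes were past 1.5-fold higher, against a background of 8.45%, and none lower, against 3.81%: CARS1 (1.14), GARS1 (1.0), IARS1 (0.71), LARS2 (0.63), AARS2 (0.61) and MARS1 (0.61). With a minimum mean of 1 TPM, AARS2 and MARS1 were no longer past that fold and YARS2 was past it lower, and with a pseudocount of 5 the calls were CARS1, GARS1 and IARS1. Under the PRMT4 label 5 were past 1.5-fold lower, against 8.22%, and none higher, against 4.70%: MARS1 (-1.0), SARS2 (-0.94), AARS1 (-0.72), VARS2 (-0.66) and VARS1 (-0.61). VARS1 lost the call with a minimum mean of 1 TPM, and VARS1 and VARS2 with a pseudocount of 5. Without centring the split under the PRMT4 label turned round, with 5 genes past 1.5-fold higher and 1 lower, and the ATF4-reported median was -0.03. The mitochondrial median under that label did not stay below 0 without centring.

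With the input of the other inhibitor label the medians were nearer 0, each taken relative to the median gene of its own pairing. Before centring that gene stood at 0.24 under the PRMT1 label and 0.16 under the PRMT4 label, against 0.02 and 0.37 with own inputs. Medians without centring were not computed for this pairing, so the nearness was not shown to be free of centring. The ATF4-reported median became 0.13 for footprints labelled PRMT1 inhibitor and 0.02 for those labelled PRMT4 inhibitor, with 5 and 6 of 13 genes below 0, against 50.9% and 49.5% of protein-coding genes. The medians of the other cytosolic enzymes became -0.04 and 0.00. Those of the mitochondrial enzymes became 0.00 and -0.16. GARS1 stood at 0.17 and 0.42 and CARS1 at 0.33 and 0.24. MARS1 stood at -0.43 and 0.02, so its sign was opposite to that with inputs of its own label in both cases. For the footprints labelled PRMT1 inhibitor, 2 genes were then past 1.5-fold higher, TARS1 (0.75) and RARS2 (0.68), and 2 lower, VARS1 (-0.82) and AARS1 (-0.71), where the backgrounds were 6.03% and 4.79%. For the footprints labelled PRMT4 inhibitor none of the 35 passed 1.5-fold in either direction, where the backgrounds were 2.05% and 2.91%. Most cytosolic enzymes, CARS1, GARS1 and VARS1 among them, kept their sign under the PRMT1 label with either input. LARS1, MARS1, QARS1 and RARS1 did not. Under the PRMT4 label CARS1 and GARS1 changed sign, as they stood at -0.56 and -0.40 with their own input.

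**Figure D4:**
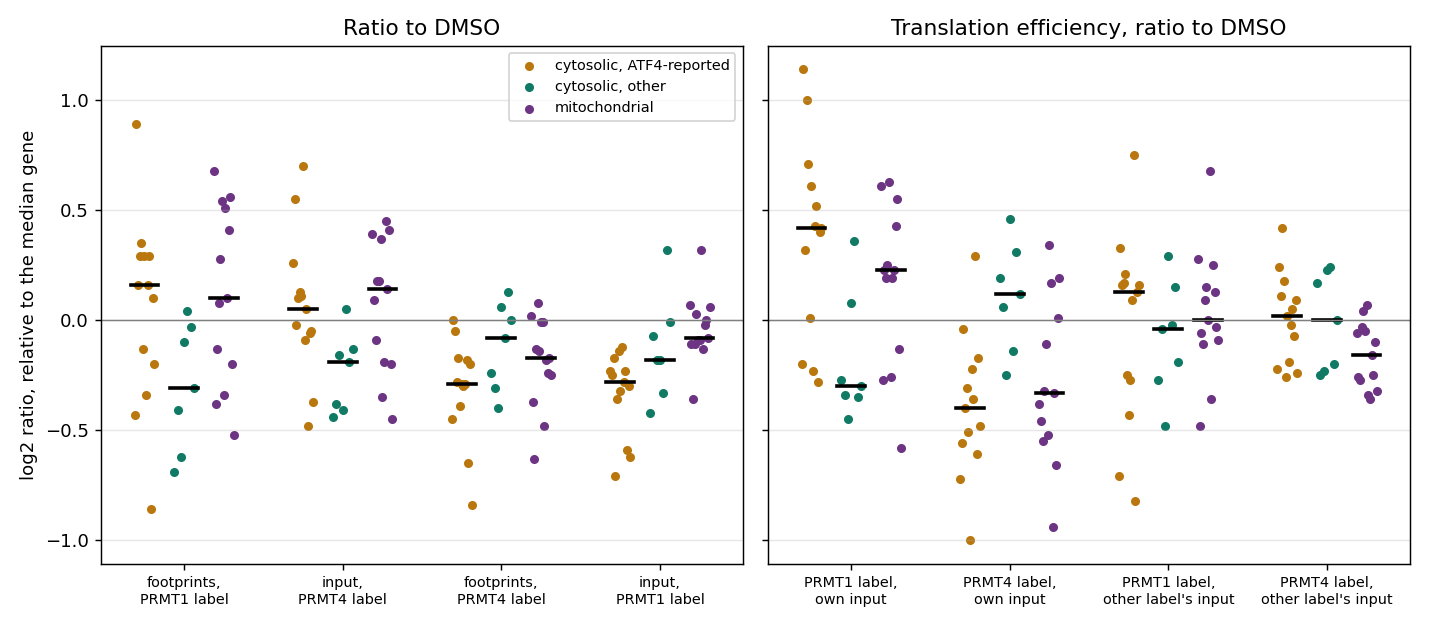
Left panel, log2 ratio to DMSO relative to the median gene in the 4 inhibitor libraries; right panel, the same for translation efficiency with the input of the same label and with that of the other inhibitor label. Each point is a gene, black bars are medians of 13 ATF4-reported cytosolic, 7 other cytosolic and 13 mitochondrial enzymes; the ATF4-reported medians of 0.42 and -0.40 with own inputs are 0.13 and 0.02 with the other inputs.

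The multisynthetase complex had a higher median than the cytosolic enzymes outside it in both inhibitor-labelled footprint libraries and in the input labelled PRMT4 inhibitor, and in the input labelled PRMT1 inhibitor the medians differed by 0.07. The 7 enzymes of the complex in the set and its scaffold proteins had medians of -0.18 and 0.05 in the inputs labelled PRMT1 and PRMT4 inhibitor, and the 13 cytosolic enzymes outside it -0.25 and -0.09. In the corresponding footprints the medians were 0.04 and -0.08 for the complex and -0.31 and -0.29 for the enzymes outside it. The scaffold genes themselves went separate ways. AIMP1, which also gives rise to a secreted cytokine, had 14.3, 15.7 and 11.8 TPM in the footprints labelled PRMT1 inhibitor, PRMT4 inhibitor and DMSO, and 8.15, 5.41 and 6.52 TPM in the inputs. Its ratio was above the median gene in all 4 inhibitor libraries, from 0.13 to 0.44, although in the input labelled PRMT4 inhibitor its TPM was lower than in DMSO. AIMP2, the central scaffold that links KARS1 to the rest, had 43.3, 54.4 and 61.5 TPM in footprints and 28.5, 24.6 and 36.6 TPM in inputs, with ratios from -0.35 to -0.17.

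The rest of the ATF4 programme comprised 27 genes of amino acid supply and stress adaptation, of which 23 were tested. In the input labelled PRMT4 inhibitor 22 of the 23 were above the median gene, which itself was shifted by -0.37, with a median of 0.39. The highest were SLC3A2, the heavy chain of amino acid transporters, at 0.95, and DDIT3, the stress factor CHOP, at 0.91. In the footprints labelled PRMT1 inhibitor 19 of 23 were above it (median 0.30), led by DDIT3 at 1.37 and SLC3A2 at 0.87. In PRMT1-labelled input and PRMT4-labelled footprints 18 of 23 were below it in each, with medians of -0.24 and -0.23. The lowest were DDIT4, an inhibitor of mTORC1 signalling, at -0.99 in that input and CBS, an enzyme of cysteine synthesis, at -1.16 in those footprints. DDIT3 and SLC3A2 were above the median gene in these libraries too, DDIT3 at 0.36 and 0.66 and SLC3A2 at 0.26 and 0.07. The ATF4-reported synthetases had medians of -0.28 and 0.05 in the inputs labelled PRMT1 and PRMT4 inhibitor, and of 0.16 and -0.29 in the corresponding footprints. ATF4 itself, named after its values were seen, had 255, 374 and 365 TPM in the inputs labelled PRMT1 inhibitor, PRMT4 inhibitor and DMSO, and 509, 366 and 457 TPM in the footprints.

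Other genes of tRNA delivery and charging, among them the elongation factors that bring charged tRNA to the ribosome, had medians near that of all genes. Of 18 listed, 14 were tested, with medians of 0.02 and 0.11 in the inputs labelled PRMT1 and PRMT4 inhibitor and of -0.10 and -0.07 in the corresponding footprints. GATC, a subunit of the mitochondrial amidotransferase that makes glutaminyl-tRNA, stood apart. It had 31.5, 21.8 and 52.2 TPM in the inputs labelled PRMT1 inhibitor, PRMT4 inhibitor and DMSO, with log2 ratios of -0.55 and -0.86, and 13.1, 17.3 and 21.2 TPM in the corresponding footprints, with ratios of -0.51 and -0.27. TUFM, the mitochondrial elongation factor, was the lowest of them in the footprints labelled PRMT4 inhibitor at -0.49.

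The mitochondrial enzymes FARS2, MARS2 and PARS2, for phenylalanine, methionine and proline, had mean levels of 3.42, 4.92 and 4.12 TPM and enter none of the counts of tested genes. FARS2 had 1.86, 1.90 and 2.35 TPM in the footprints labelled PRMT1 inhibitor, PRMT4 inhibitor and DMSO, and 5.29, 4.50 and 4.62 TPM in the inputs. MARS2 had 3.19, 3.85 and 4.42 TPM in those footprints and 6.17, 4.89 and 6.97 TPM in the inputs. PARS2 had 2.84, 3.17 and 2.77 TPM in the footprints and 5.40, 4.72 and 5.82 TPM in the inputs.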

How the data were processed

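Input and footprint libraries of HEK293T cells were deposited as 1 table of TPM per Ensembl gene, with 2 decimals. Per the submitters' processing notes, RSEM 1.2.22, STAR 2.4.2a, Bowtie 1.1.2 and cutadapt 1.18 were used with the build GRCh37.p13, their roles unstated. Read depth is unknown, since TPM keeps none, and no interval is given. The sources used here do not describe the preparation of the input.

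Of 60461 rows, 41 PAR_Y copies were dropped. Symbols were matched for 55725 genes and types for 56157 (GENCODE release 29). Ratios used a pseudocount of 1 TPM and were centred on the median of genes with a mean of at least 5 TPM. Ratio scripts (Python 3.11.15, numpy 2.4.6, pandas 2.3.3) were tested on simulated data. With 1 library per group there is no test. All 38 genes could be named, of the other lists at most the 2 highest and 2 lowest genes in a comparison, and HMOX1. The genes and lists were chosen with earlier results of these data known. Promoter sequences are from RefSeq (GRCh38.p14), a build other than that of the files. Alternatives were pseudocounts of 0.1 and 5, a minimum mean of 1 TPM or none, no centring, shares of protein-coding TPM and the input of the other inhibitor label.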

Additional observations from a re-analysis of the deposited data

How the results depend on the processing

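No paired analysis was possible because each treatment had 1 library in each fraction. Pseudocounts, filters and centring were changed one at a time, and medians within 0.1 (log2) were taken as equal; read depth is unknown and limits the low genes most. Median ratios below are given for cytosolic, mitochondrial, ATF4-reported and other cytosolic enzymes, in that order. Without centring they were -0.40, -0.24, -0.44 and -0.34 in PRMT1-labelled input, -0.42, -0.23, -0.31 and -0.56 in PRMT4-labelled input, and -0.21, -0.05, 0.01 and -0.45 in footprints labelled PRMT1 inhibitor. Translation efficiency under the PRMT4 label then had 0.13, 0.04, -0.03 and 0.49. PRMT1 over PRMT4 label then gave -0.04, 0.01, -0.13 and 0.33 in input and 0.02, 0.35, 0.31 and -0.30 in footprints. With no filter on low values the input labelled PRMT1 inhibitor had -0.39 for cytosolic, -0.43 for ATF4-reported and -0.32 for other cytosolic enzymes. The other comparisons had -0.39, -0.21, -0.28 and -0.53 (input, PRMT4 label), -0.21, -0.06, 0.01 and -0.45 (footprints, PRMT1 label), 0.10, 0.02, -0.06 and 0.46 (translation efficiency, PRMT4 label), -0.05, 0.04, -0.14 and 0.31 (input, PRMT1 over PRMT4 label) and 0.02, 0.07, 0.31 and -0.30 (footprints, PRMT1 over PRMT4 label). Loading in DMSO had 0.10, -0.55, 0.16 and 0.08 with no filter, and 0.20, -0.45, 0.26 and 0.18 with a mean of at least 1 TPM. The mitochondrial median of footprints, PRMT1 over PRMT4 label, was 0.16 with that minimum and 0.37 with a pseudocount of 5, which put the other cytosolic enzymes at -0.18 in footprints labelled PRMT1 inhibitor. With the input of the other inhibitor label, translation efficiency had 0.03, 0.00, 0.13 and -0.04 under the PRMT1 label and 0.01, -0.16, 0.02 and 0.00 under the PRMT4 label, and MARS1 had -0.43 and 0.02.

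Counts of genes past 1.5-fold in either direction changed as follows. In the input labelled PRMT4 inhibitor there were 2 with a pseudocount of 0.1 or shares of protein-coding TPM, and 7 with no filter or no centring. With a pseudocount of 5 there were 3 in footprints labelled PRMT1 inhibitor, 1 in footprints labelled PRMT4 inhibitor, 3 for translation efficiency under each label and 3 in footprints of PRMT1 over PRMT4 label. That last comparison had 5 with a mean of at least 1 TPM, and 3 with no filter or no centring. The input of PRMT1 over PRMT4 label had 6 with no filter or no centring. Translation efficiency under the PRMT4 label had 0 with the other input. Beyond the filters, the centring and the exchanged input themselves, the cause was not tested.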
